A study of Mus musculus with 26 samples.

Results

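The 44 protein-coding genes that encode collagen alpha chains were followed through regeneration of mouse tibialis anterior (TA) muscle and through differentiation of C2C12 myoblasts. They were taken by gene type and by symbol (Col, a number, a, a number) from both expression tables, out of 53465 genes listed for muscle and 55487 listed for the cells. The same 44 chains were found in each table. By the structure of the molecule they form, 11 are fibrillar chains, 6 are the type IV chains of basement membranes, 9 are FACIT chains (fibril-associated collagens with interrupted triple helices) and 18 belong to other types, among them types VI, VII, VIII, XV and XVIII.

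The muscle came from male C57BL/6J mice, 6 weeks old when the TA was injected with cardiotoxin (CTX), a snake venom toxin that destroys myofibers. It was collected on days 0, 1, 3, 5 and 10 (D0 to D10), with 2 libraries a day. Saline served as the control treatment, and the labels of D0 do not say whether those muscles received it. C2C12 is an established mouse myoblast line that differentiates when serum is withdrawn. CTRL cells and Cas9M3 cells were each sequenced in growth medium (GM, labelled D0) and after 3 days in differentiation medium (DM3, labelled D3), with 2 libraries per group. In Cas9M3 cells a lentivirus carried dCas9-KRAB, a repressor without cutting activity, and a guide to the promoter of Mettl3, which encodes the catalytic subunit of the m6A writer. The methods describe this as a knockdown in puromycin-selected stable lines, whereas the series text calls the cells a knockout. Which guide was used, and what the CTRL cells carried, were not given in the sources used here. All groups of the cell table are derivatives of 1 line, and nothing says whether replicate libraries came from separate cultures or mice, so p-values measure only the spread between these libraries.

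A collagen molecule is a rope of alpha chains wound around each other, and each chain holds stretches of the repeat Gly-X-Y, in which glycine fits into the core of the rope. Fibrillar collagens (types I, II, III, V, XI, XXIV and XXVII) keep this repeat unbroken over nearly the whole helix and pack side by side into the fibrils that bear load in tendon, skin and the connective tissue sheaths of muscle. Type IV collagens have a helix with many interruptions and join into the flexible sheet of the basement membrane that surrounds every myofiber and blood vessel. FACITs sit on the surface of fibrils, type VI forms beaded filaments next to the basement membrane, type VIII forms short-chain networks, and types XV and XVIII link basement membranes to the matrix around them.

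The difference in the repeat can be read from the coding sequence. In the longest coding transcript of each gene (GENCODE M21, GRCm38), the longest run of Gly-X-Y repeats held 216 to 344 repeats in the fibrillar chains, with 338 in Col1a1, 339 in Col1a2 and 344 in Col3a1. In the type IV chains the longest run held 39 to 66 repeats, and the helix was split into 22 to 27 runs of at least 6 repeats. The longest run was 32 to 113 repeats in FACITs and 23 to 87 in the other types. Coding exons of exactly 54 bases made up 305 of 649 in the fibrillar genes (47.0%), 109 of 432 in the FACIT genes (25.2%), 43 of 627 in the other genes (6.86%) and 12 of 296 in the type IV genes (4.05%). The exons below are shown because these chains carried most of the collagen RNA in muscle and moved differently by type, and capitals mark the glycine codon that opens each Gly-X-Y repeat, on the coding strand. Glycine codons at other positions are in lower case. Each of the fibrillar exons keeps the repeat without a break, whereas exon 46 of Col4a1 has 3 such glycine codons, then 4 codons outside the repeat, then 9 more.
Col1a1 exon 29 at chr11:94944914-94944967 (+): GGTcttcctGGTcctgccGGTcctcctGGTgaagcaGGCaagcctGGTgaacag
Col1a2 exon 29 at chr6:4524876-4524929 (+): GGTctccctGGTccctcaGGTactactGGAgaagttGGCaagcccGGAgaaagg
Col3a1 exon 28 at chr1:45335728-45335781 (+): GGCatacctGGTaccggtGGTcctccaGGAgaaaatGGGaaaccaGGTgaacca
Col5a2 exon 31 at chr1:45400821-45400874 (-): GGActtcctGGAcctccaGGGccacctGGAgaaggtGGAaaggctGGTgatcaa
Col4a1 exon 46 at chr8:11209522-11209650 (-): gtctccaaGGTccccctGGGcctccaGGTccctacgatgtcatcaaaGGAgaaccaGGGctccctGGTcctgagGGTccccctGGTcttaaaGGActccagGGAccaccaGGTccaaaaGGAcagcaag

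The type IV genes lie in head-to-head pairs. Col4a1 and Col4a2 start 21 bases apart on opposite strands of chromosome 8, Col4a3 and Col4a4 start 72 bases apart on chromosome 1, and Col4a5 and Col4a6 start 1309 bases apart on chromosome X. Annotated exons of Col4a1 and Col4a2 overlap by 22 bases on opposite strands, and whether reads were counted by strand was not given in the sources used here. The type I genes Col1a1 and Col1a2 lie on chromosomes 11 and 6. RefSeq windows (GRCm38.p6, 250 bases before to 50 after the start) were matched for 35 of the 44 chains. Over both strands, the GC box letters GGGCGG were found in 4 of 5 type IV and 6 of 8 fibrillar chains with a window, against 35.7% of all 32851 windows. The letters CCAAT were found in 3 of 5 and 3 of 8 (37.4% of all windows), and the TATA letters TATAAA in 0 of 5 and 2 of 8 (13.6%). Matches of different motifs did not overlap in the windows shown, and a match is a description of the letters only. The shared start region of Col4a1 and Col4a2 (chr8:11312685-11312946, + strand) and the windows of Col1a2 (chr6:4505368-4505667, +) and Col3a1 (chr1:45311288-45311587, +) are printed as the starts of trimer partners or of abundant chains that differed by type in the results, with GC, CCAAT and TATA letters in capitals.
Col4a1 and Col4a2: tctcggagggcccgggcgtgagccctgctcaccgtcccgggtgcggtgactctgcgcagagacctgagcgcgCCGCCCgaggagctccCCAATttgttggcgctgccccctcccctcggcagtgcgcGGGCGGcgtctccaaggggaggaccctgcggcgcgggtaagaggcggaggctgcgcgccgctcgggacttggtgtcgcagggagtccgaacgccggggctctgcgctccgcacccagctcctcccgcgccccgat
Col1a2: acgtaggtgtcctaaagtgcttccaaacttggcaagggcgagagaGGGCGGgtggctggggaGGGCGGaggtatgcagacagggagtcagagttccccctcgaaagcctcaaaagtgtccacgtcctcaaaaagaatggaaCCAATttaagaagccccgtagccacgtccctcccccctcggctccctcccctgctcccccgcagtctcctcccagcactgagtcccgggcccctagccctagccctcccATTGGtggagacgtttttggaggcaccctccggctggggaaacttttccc
Col3a1: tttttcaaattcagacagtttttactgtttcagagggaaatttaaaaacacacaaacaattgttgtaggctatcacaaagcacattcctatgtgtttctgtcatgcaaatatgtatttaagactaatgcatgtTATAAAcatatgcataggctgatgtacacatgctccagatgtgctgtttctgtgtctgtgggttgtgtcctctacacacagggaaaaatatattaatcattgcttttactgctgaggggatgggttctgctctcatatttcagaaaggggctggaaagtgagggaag

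Levels are given in FPKM, which divides reads by library size and by the length of all annotated exons of a gene. At D3 replicate 1, Col1a1 and Col1a2 had 45309 and 43227 implied reads over 6563 and 12426 such bases. Levels, ranks, shares and ratios between chains thus depend on this length as well, while changes of a chain between libraries do not. Implied depth was 14173885 to 18822776 reads on genes in the muscle libraries and 14226971 to 29559526 in the cell libraries. Changes are log2 fold changes of FPKM + 0.1 with their standard error (SE) from limma, which understates changes of low genes. A chain was called at a Benjamini-Hochberg adjusted p of at most 0.05 over all genes tested, and was a differentially expressed gene (DEG) where the log2 change was also at least 2. The test took genes that reached 0.5 FPKM in 2 or more libraries, which kept 31 of the 44 chains in muscle (10 fibrillar, 3 type IV, 5 FACIT, 13 other) and 27 in the cells (9, 4, 4 and 10). An exact two-sided permutation test of 2 against 2 libraries cannot go below p = 0.333. The muscle identity genes Acta1 and Ckm were high in every muscle library (5994 to 23304 and 1013 to 7577 FPKM), both lowest at D3. Although the methods name male mice, Xist was at 5.77 to 10.0 FPKM in both D0, both D10 and 1 of the D3 libraries (replicate 2), with Y-linked genes near 0, and at 0.152 FPKM or less in the other 5, where Y-linked genes were at 0.626 FPKM or more. Counts of calls in comparisons with D3 are therefore also given without the libraries concerned. For D1 and D5 against D0 the split by Xist RNA and the day coincide, so leaving out a library cannot separate them. In the cells, Mettl3 was at 4.68 to 5.65 FPKM in CTRL and at 0.0805 to 0.331 FPKM in Cas9M3. CTRL GM replicate 2 stood apart, with 1 read on 1 kb worth 0.104 FPKM against at most 0.0681 FPKM in the other cell libraries. Myog, which drives terminal differentiation, was at 89.1 and 83.3 FPKM in CTRL DM3 and at 3.50 and 2.28 FPKM in Cas9M3 DM3, so the DM3 groups differed in this marker RNA as well.

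At D0 the fibrillar chains held 40.7% and 49.8% of the collagen sum and the type IV chains 32.5% and 27.2%, and at D3 the fibrillar chains held 76.2% and 74.4% of the collagen sum. The 11 fibrillar chains summed to 58.3 and 204 FPKM at D0, 57.9 and 159 FPKM at D1, 893.5 and 968 FPKM at D3, 944 and 1080 FPKM at D5 and 183 and 445 FPKM at D10. The libraries of D3 and D5 overlapped each other and lay above every library of the other days, and the replicates of D0, D1 and D10 lay far apart. The 6 type IV chains summed to 46.6 and 111 FPKM at D0, 61.3 and 110.2 FPKM at D1, 69.6 and 73.7 FPKM at D3, 132 and 184 FPKM at D5 and 65.5 and 161 FPKM at D10, so that D3 lay inside the range of D0. The fibrillar share of the collagen sum was 40.7% and 49.8% at D0, 37.4% and 46.2% at D1, 76.2% and 74.4% at D3, 71.0% and 68.9% at D5 and 56.5% and 58.0% at D10. The type IV share was 32.5% and 27.2% at D0, 39.6% and 32.1% at D1, 5.94% and 5.66% at D3, 9.89% and 11.8% at D5 and 20.3% and 20.996% at D10. In these shares the replicates of D3, D5 and D10 lay close together, and those of D0 and D1 lay further apart. FACITs held 2.09% to 4.33% on every day, and type VI held 7.17% to 14.8%. Over all 10 libraries Col1a1, Col3a1 and Col1a2 together held 57.3% of the collagen sum. This rank did not hold on every day. At D1 the highest group means were those of Col4a1 (48.2 FPKM) and Col4a2 (37.1 FPKM), and at D0 Col3a1 (48.1 FPKM) and Col4a1 (44.2 FPKM) stood above Col1a1 (35.4 FPKM), all differences within the spread of the replicates. In bulk muscle, fewer cells of a type and less RNA per cell cannot be told apart.

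**Figure D1:**
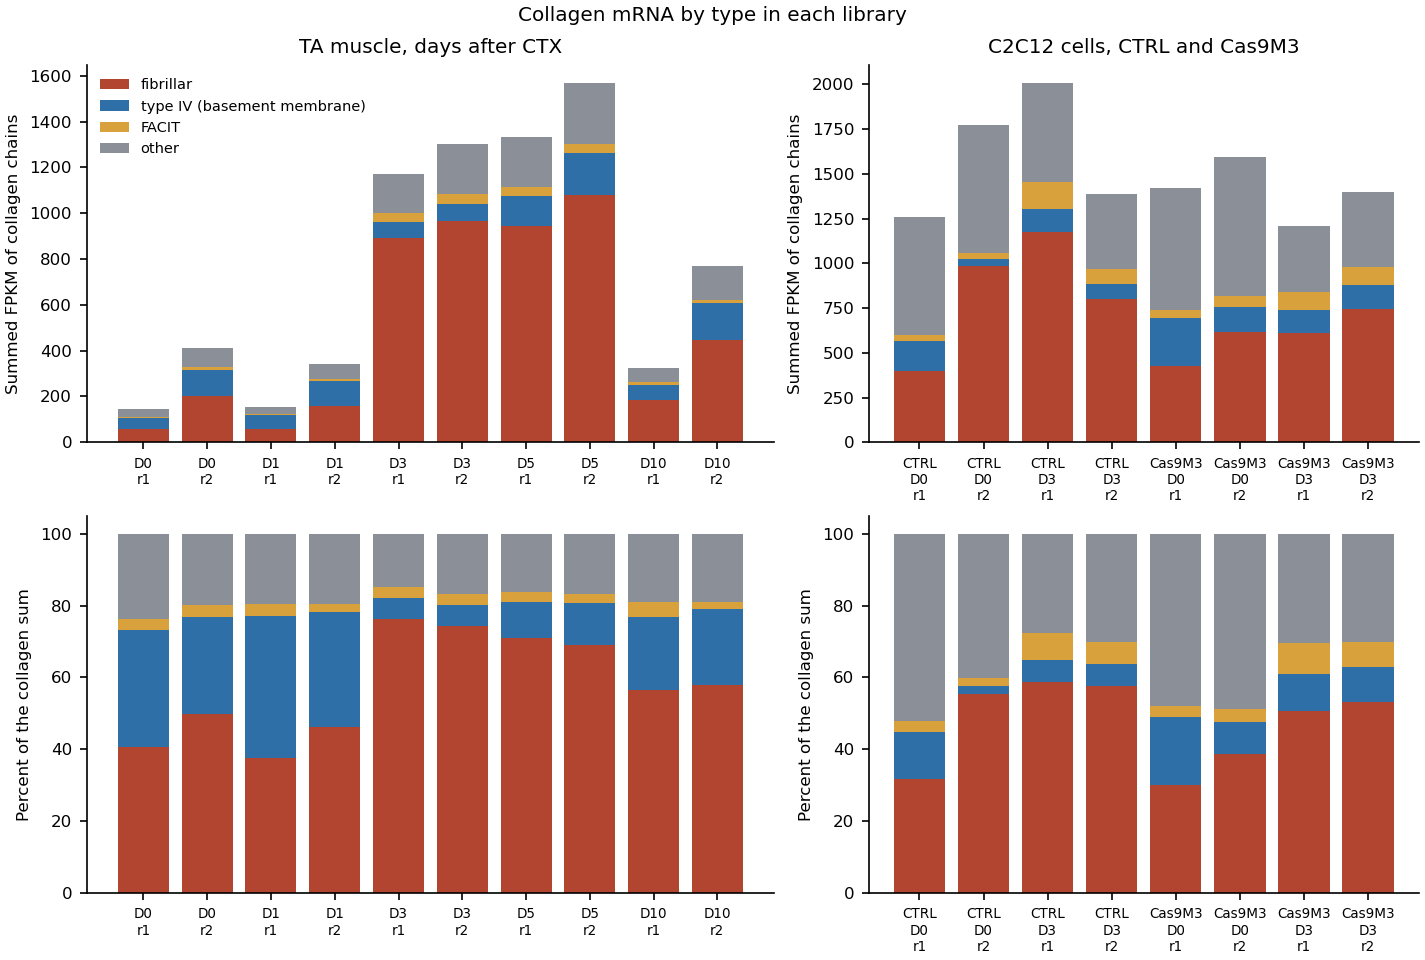
Share of each collagen type in the summed FPKM of the 44 chains, as a percentage for each library, in muscle (left) and C2C12 cells (right). The fibrillar share stood at 76.2% and 74.4% at D3 against 40.7% and 49.8% at D0, and the type IV share at 5.94% and 5.66% against 32.5% and 27.2%.

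From the 11 fibrillar chains (10 tested), 8 rose between D0 and D3, and 7 of these were DEGs, beside 48.8% of all genes tested that were called in either direction, 24.5% of them higher, and 9.46% that were DEGs and higher. Col1a1, the alpha 1 chain of type I collagen, was at 13.9 and 56.9 FPKM at D0, 22.3 and 48.7 at D1, 349.8 and 354 at D3, 301 and 368 at D5 and 64.2 and 148 at D10. All 4 libraries of D3 and D5 lay above every library of the other days. Col1a1 rose by 3.64 (SE 0.68, adjusted p = 0.00384) on the log2 scale from D0 to D3. Its partner Col1a2 was at 8.29 and 33.9 FPKM at D0, 9.87 and 31.9 at D1, 176 and 198 at D3, 181 and 186 at D5 and 34.9 and 80.7 at D10, a rise of 3.47 (SE 0.75, adjusted p = 0.00704) from D0 to D3. Col3a1, the chain of the type III collagen that forms fine, pliable fibrils, was at 19.1 and 77.1 FPKM at D0, 14.3 and 48.6 at D1, 238 and 284 at D3, 347 and 397 at D5 and 51.9 and 159 at D10. It rose by 2.76 (SE 0.81, adjusted p = 0.0244), and D5 was its highest day, without overlap with D3.

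The type V chains, which join type I fibrils and limit their diameter, were not alike. Col5a1 was at 3.47 and 11.98 FPKM at D0, 2.71 and 7.78 at D1, 58.6 and 54.4 at D3, 46.0 and 54.4 at D5 and 7.98 and 20.3 at D10. Col5a2 was at 2.44 and 8.58 FPKM at D0, 2.42 and 7.32 at D1, 44.1 and 47.5 at D3, 40.5 and 41.1 at D5 and 5.79 and 15.1 at D10. Both were higher at D3 than on D0, D1 and D10 in every library, by 3.11 (SE 0.69, adjusted p = 0.008) and 3.29 (SE 0.70, adjusted p = 0.0069) against D0. Col5a3, the third chain of type V, was at 8.19 and 11.9 FPKM at D0 and 19.9 and 19.8 FPKM at D3. Its libraries did not overlap, yet the log2 difference of 1.00 (SE 0.41) did not pass the test (adjusted p = 0.0784). At D0, Col5a3 was level with or above Col5a1, and at D3 it stood below Col5a1 and Col5a2.

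The minor fibrillar chains were low throughout. Col11a1, an alpha chain of cartilage type XI collagen, was at 0.0504 and 0.435 FPKM at D0, 0.0931 and 0.627 at D1, 1.44 and 3.14 at D3, 3.20 and 1.71 at D5 and 0.763 and 0.828 at D10. Col27a1 was at 0.160 and 0.236 FPKM at D0, 0.349 and 0.362 at D1, 1.63 and 1.28 at D3, 1.15 and 1.27 at D5 and 0.282 and 0.492 at D10. From D0 to D3, Col11a1 rose by 2.98 (adjusted p = 0.0163) and Col27a1 by 2.39 (SE 0.31, adjusted p = 0.000853), and Col27a1 had replicates closer together at D0 than the type I chains. Col27a1 reached 0.5 FPKM only at D3 and D5, so it entered the test through the days on which it was high. Col11a2 rose by 1.30 (adjusted p = 0.0307), from 0.893 and 1.37 FPKM to 2.24 and 3.68 FPKM. Col24a1 was between 0.852 and 4.41 FPKM with no order by day, with a log2 difference of -0.19 (adjusted p = 0.775). Col2a1, the major collagen of cartilage, never exceeded 0.231 FPKM and was not tested.

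The type IV chains did not follow the fibrillar chains. Col4a1 was at 24.5 and 64.0 FPKM at D0, 33.1 and 63.3 at D1, 41.0 and 42.2 at D3, 77.2 and 111 at D5 and 37.2 and 95.5 at D10. Col4a2, with which it forms the common type IV trimer, was at 21.5 and 46.4 FPKM at D0, 27.9 and 46.3 at D1, 27.8 and 30.5 at D3, 53.1 and 71.4 at D5 and 27.3 and 64.8 at D10. The D3 libraries of both lay between the D0 replicates. The log2 difference from D0 to D3 was 0.07 (SE 0.57, adjusted p = 0.934) for Col4a1 and -0.12 (SE 0.49, adjusted p = 0.864) for Col4a2, and with quantile normalization Col4a2 turned to 0.22. Col4a5 was at 0.143 and 0.613 FPKM at D0, 0.649 and 0.934 at D3 and 1.00 and 1.48 at D5. It differed by 1.08 (adjusted p = 0.115) at D3 and rose by 1.66 (adjusted p = 0.048) at D5. Col4a3, Col4a4 and Col4a6, the remaining members of the head-to-head pairs, stayed at or below 0.258 FPKM and were not tested.

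Of the 9 FACIT chains, 5 were tested and 3 of these rose at D3, each as a DEG, beside 24.5% of all genes called higher. Col12a1, the type XII chain of fibril surfaces in tendon and muscle sheaths, was at 0.206 and 1.13 FPKM at D0, 0.248 and 1.24 at D1, 7.69 and 7.82 at D3, 6.03 and 4.64 at D5 and 0.922 and 2.03 at D10. Col14a1, the type XIV chain, was at 0.607 and 2.63 FPKM at D0, 0.428 and 1.91 at D1, 9.26 and 12.3 at D3, 16.1 and 18.7 at D5 and 1.78 and 5.89 at D10. Col16a1 was at 0.749 and 2.41 FPKM at D0, 0.941 and 1.89 at D1, 15.3 and 15.5 at D3, 11.4 and 12.01 at D5 and 1.97 and 4.85 at D10. For all 3 chains, D3 and D5 lay above the other days in every library, with Col14a1 highest at D5 and the other two at D3. The rises from D0 to D3 were 3.68 (SE 0.78, adjusted p = 0.00663) for Col12a1, 2.95 (SE 0.84, adjusted p = 0.0214) for Col14a1 and 3.41 (SE 0.58, adjusted p = 0.00256) for Col16a1. Col20a1 (0.244 to 1.33 FPKM) and Col22a1 (0.749 to 7.26 FPKM), a chain of the myotendinous junction, did not pass the test, with differences of -0.22 and -0.30. Col9a1, Col9a2, Col9a3 and Col19a1 were at or below 0.580 FPKM.

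Among the 18 other chains, 13 were tested, 8 of these rose at D3 and 5 were DEGs, beside the same 24.5% called higher and 9.46% DEGs among all genes. Col6a1 was at 10.9 and 26.2 FPKM at D0, 5.12 and 20.5 at D1, 65.7 and 86.8 at D3, 81.2 and 97.8 at D5 and 19.4 and 46.2 at D10. Col6a2 was at 5.51 and 14.2 FPKM at D0, 2.69 and 9.54 at D1, 30.7 and 38.8 at D3, 39.8 and 48.9 at D5 and 9.33 and 23.9 at D10. Col6a3 was at 4.14 and 10.8 FPKM at D0, 3.24 and 9.83 at D1, 27.7 and 34.4 at D3, 41.6 and 48.1 at D5 and 8.59 and 19.8 at D10. For these chains of the type VI trimer both D3 and D5 lay above the other days in every library, with D5 above D3 for Col6a2 and Col6a3 and overlap between them for Col6a1. They rose from D0 to D3 by 2.15 (adjusted p = 0.0356), 1.95 (adjusted p = 0.0471) and 2.19 (adjusted p = 0.0226) in that order. Col6a6, an alternative type VI chain of muscle, had another course, at 0.525 and 0.572 FPKM at D0, 0.0381 and 0.540 at D1, 0.497 and 0.491 at D3, 2.91 and 3.96 at D5 and 0.641 and 1.45 at D10. D5 stood above every other library, and Col6a6 rose by 2.56 (SE 0.67, adjusted p = 0.0457) from D3 to D5. It was the single chain called in that comparison, in which 7.23% of genes were called higher and 12.7% in either direction. At an unadjusted p under 0.05 there were 3 chains, beside 4920 of 16753 genes. Without any 1 of the 4 libraries compared, and with a term for Xist RNA, 0 chains were called from D3 to D5.

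The type VIII chains peaked at D3. Col8a1 was at 0.864 and 3.24 FPKM at D0, 2.30 and 4.14 at D1, 15.4 and 20.8 at D3, 6.31 and 4.31 at D5 and 1.74 and 6.94 at D10. Col8a2 was at 0.143 and 0.567 FPKM at D0, 0.171 and 1.17 at D1, 3.84 and 9.49 at D3, 3.45 and 1.69 at D5 and 0.437 and 1.55 at D10. For both, the D3 libraries lay above all others. Col8a2 had the highest log2 change of any chain from D0 to D3, 3.93 (SE 0.91, adjusted p = 0.00945), and Col8a1 rose by 3.33 (SE 0.74, adjusted p = 0.00786). The type XVIII chain Col18a1, the precursor of endostatin, was at 1.03 and 3.33 FPKM at D0, 2.96 in both D1 libraries, 9.84 and 7.39 at D3, 8.35 and 13.1 at D5 and 2.06 and 5.35 at D10, and rose by 2.13 (adjusted p = 0.0181). Its relative Col15a1, of the basement membrane zone, was at 6.80 and 17.3 FPKM at D0, 13.2 and 13.6 at D3 and 23.3 and 39.2 at D5, with a difference of 0.30 (adjusted p = 0.694) at D3, inside the spread of D0. Col26a1 rose by 1.92 (adjusted p = 0.0102) and the transmembrane chain Col13a1 by 1.83 (adjusted p = 0.0126), both at 1.77 FPKM or less. Neither reached 0.5 FPKM in any library of D0 or D1, so both entered the test through D3 and later days, when they were higher. Col26a1 was at 0.137 and 0.495 FPKM at D0, 0.214 and 0.233 at D1, 0.979 and 1.77 at D3, 1.201 and 1.21 at D5 and 0.669 and 0.609 at D10, with D3 to D10 above D0 and D1 in every library.

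**Figure D2:**
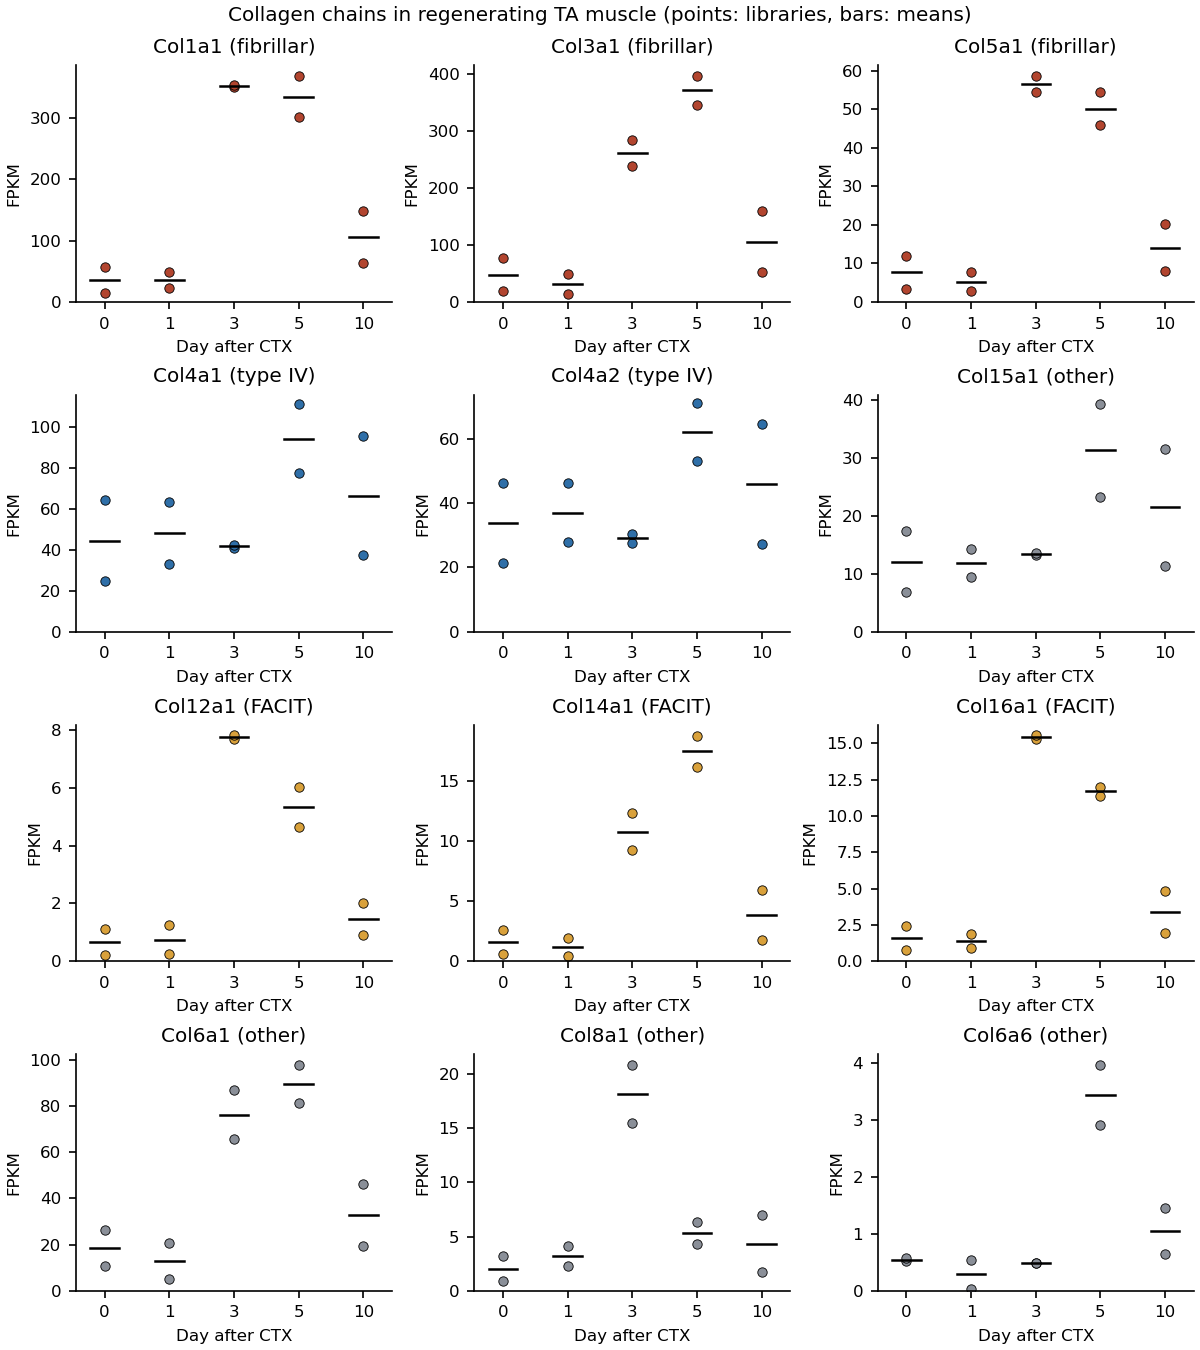
FPKM of named chains in each muscle library (points) with the mean of the 2 libraries of a day, against the day after CTX. Col1a1, Col3a1, Col12a1 and Col6a1 stood highest at D3 and D5, Col8a1 at D3, and Col4a1 at D3 (41.0 and 42.2 FPKM) lay between its D0 libraries (24.5 and 64.0 FPKM).

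Counted together, 19 of the 44 chains (31 tested) were called at D3 against D0, all higher, beside 24.5% of all genes called higher. Of these, 15 were DEGs, beside 9.46% of all genes that were DEGs and higher. At an unadjusted p under 0.05 there were 22 chains, beside 9341 of 16753 genes. By type, 8 fibrillar, 0 type IV, 3 FACIT and 8 other chains were called. Among them, Col27a1, Col13a1 and Col26a1 entered the test only through D3 and later days. The median log2 change of the tested chains was 2.87 for fibrillar, 0.07 for type IV, 2.95 for FACIT and 1.92 for other chains, beside 0.01 over all genes tested. A quantile normalization moved the median of all genes to -0.12, and 19 chains were then called higher and 1 lower, Col7a1 at -0.98 (adjusted p = 0.035). Without D3 replicate 1, so that every library compared had Xist RNA, 13 chains were called (34.4% of genes), among them Col1a1 at 3.65 (adjusted p = 0.022), whereas Col3a1 at 2.89 (adjusted p = 0.074) and the type VI chains were not. Without D3 replicate 2, 8 were called (31.2%), and 10 without D0 replicate 1 (32.0%). Col1a1, Col1a2, Col5a1, Col5a2, Col12a1, Col16a1, Col27a1 and Col8a1 were called in each of these fits.

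Chains were called at D3 against D1 and not at D1 against D0. At D1 against D0, 0 chains were called by limma, beside 6% of genes, and Col27a1 had the lowest adjusted p (0.239). At an unadjusted p under 0.05 there were 0 chains, beside 4493 of 16753 genes. Both D0 libraries had Xist RNA and both D1 libraries lacked it, so this difference and the day cannot be told apart. At D3 against D1, 19 chains were called higher (14.5% of genes, 31.1% in either direction): 9 fibrillar, 0 type IV, 3 FACIT and 7 other, with 15 DEGs (4.71% of genes were DEGs and higher). Col5a3 was among them, at 4.44 and 10.9 FPKM on D1, with an adjusted p of 0.0297, and Col4a5 was not (adjusted p = 0.0579). Both D1 libraries and D3 replicate 1 lacked Xist RNA. Without D3 replicate 2, only Col16a1 and Col27a1 were called, and leaving out each library in turn gave 2 to 20 calls.

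At D5 against D0, 19 chains were again higher (12.9% of genes, 25.5% in either direction): 8 fibrillar, Col4a5 of type IV, 3 FACIT and 7 other, with 15 DEGs (4.21% of genes were DEGs and higher). Compared with D3, Col6a6 (2.43, adjusted p = 0.0355), Col23a1 (1.55) and Col4a5 were called and Col8a1 (1.57, adjusted p = 0.154), Col8a2 (2.65, adjusted p = 0.0685) and Col13a1 were not. Col4a1 differed by 1.22 (adjusted p = 0.153) and Col4a2 by 0.96 (adjusted p = 0.183). Both D0 libraries had Xist RNA and both D5 libraries lacked it, so this difference and the day cannot be told apart in the comparison. With a term for Xist RNA 0 chains and 0% of genes were called. That term was set by the D3 libraries alone, the only day whose libraries differed in Xist RNA. It therefore cannot separate Xist RNA from the day here. The count of calls also depended on single libraries.

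At D10 a minority of the chains were called lower than at D3, and none was called against D0. Against D3, 7 of the 31 tested chains fell, near the 18.8% of all genes called lower, and 1 rose (19.1% of genes higher). The share of chains called in either direction lay below the 37.9% of all genes. The falls were Col5a1 by 2.14 (adjusted p = 0.0432), Col5a2 by 2.28 (adjusted p = 0.0375), Col27a1 by 1.70 (adjusted p = 0.00481), Col12a1 by 2.41 (adjusted p = 0.0439), Col16a1 by 2.28 (adjusted p = 0.0181), Col8a1 by 2.32 (adjusted p = 0.0408) and Col8a2 by 2.71 (adjusted p = 0.0495). Col27a1 had entered the test only through its values at D3 and D5. Col1a1 differed by -1.85 (adjusted p = 0.066) and Col3a1 by -1.52 (adjusted p = 0.177), although both D10 libraries were below both D3 libraries. Col7a1, the type VII chain of anchoring fibrils, went the other way, at 2.97 and 3.16 FPKM at D0, 3.21 and 1.81 at D1, 1.83 and 1.73 at D3, 4.69 and 2.88 at D5 and 5.52 and 4.04 at D10. It rose by 1.36 (SE 0.32, adjusted p = 0.0131) from D3 to D10. Without D3 replicate 1, D3 replicate 2 or D10 replicate 1, a single chain was called each time, Col27a1. At D10 against D0, 0 chains were called by limma, beside 0.00597% of genes, and 2 chains and 1697 genes had an unadjusted p under 0.05. All 31 tested chains had a log2 difference above 0, with a median of 0.89. These differences share the D0 libraries, whose replicates lay far apart for the type I chains.

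**Figure D3:**
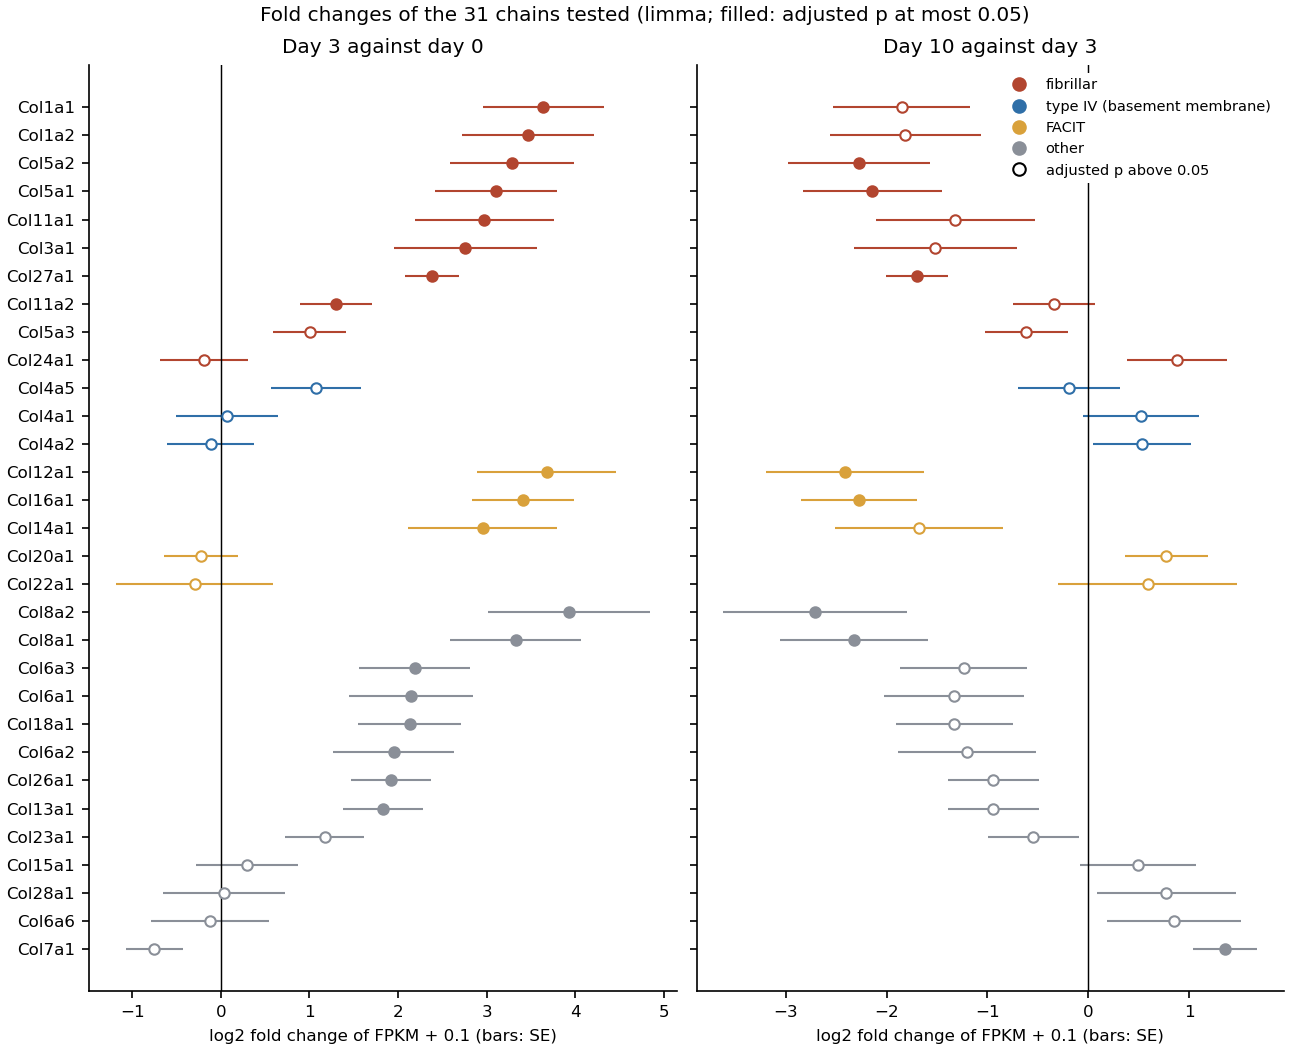
Log2 fold changes (points) with SE (bars) of the 31 chains tested, at D3 against D0 (left) and D10 against D3 (right), coloured by type and filled where the adjusted p was at most 0.05. Col1a1 stood at 3.64 and Col4a1 at 0.07 in the left panel, and Col7a1 was the single chain called higher in the right panel.

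Ratios within a library cancel its scaling and show which chains kept step. Col1a1/Col1a2 was 1.53 to 2.26 over the 10 muscle libraries, Col4a1/Col4a2 1.14 to 1.56 and Col6a1/Col6a2 1.85 to 2.24. These 3 pairs of trimer partners kept to narrow ranges over the days, as did Col5a1/Col5a2, while Col1a1/Col4a1 did not. Col1a1/Col4a1, a ratio chosen after values were seen like those of types V and VIII, was 0.566 and 0.889 at D0, 0.674 and 0.769 at D1, 8.54 and 8.39 at D3, 3.90 and 3.31 at D5 and 1.73 and 1.55 at D10. No day from D3 on overlapped another, and D0 and D1 were not separated. Col3a1/Col1a1 was 1.38 and 1.35 at D0, 0.642 and 0.999 at D1, 0.682 and 0.803 at D3, 1.15 and 1.08 at D5 and 0.808 and 1.08 at D10. The Col3a1 level thus stood above that of Col1a1 in both libraries of D0 and D5, and below it or level with it at D1 and D3. Col5a1/Col5a2 held at 1.06 to 1.42, Col8a1/Col8a2 ranged from 1.83 to 13.4, and Col4a5/Col4a6 from 4.27 to 58.2, with Col4a6 untested and near 0.

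**Figure D4:**
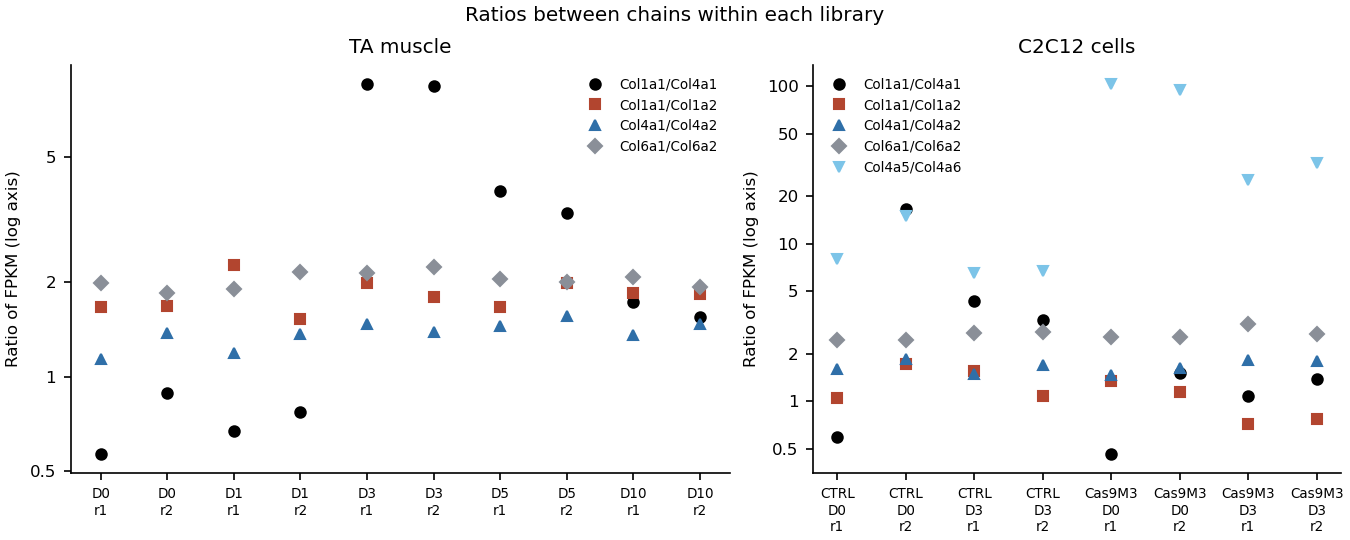
Ratios of FPKM between chains within each library, on a log axis, in muscle (left) and C2C12 cells (right). Col1a1/Col1a2, Col4a1/Col4a2 and Col6a1/Col6a2 kept within 1.14 to 2.26 in muscle, while Col1a1/Col4a1 went from 0.566 and 0.889 at D0 to 8.54 and 8.39 at D3.

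Genes that make, trim and sense collagen were counted from lists. Of 23 genes for modification and folding, all tested, 17 rose and 1 fell from D0 to D3, with a median log2 change of 1.17, beside 24.5% of all genes called higher and a median of 0.01. P4ha3, a prolyl 4-hydroxylase subunit, went from 0.0256 and 0.287 FPKM to 4.57 and 5.33 FPKM, a rise of 4.51 (adjusted p = 0.00139). Fkbp10, a chaperone of the endoplasmic reticulum, rose by 3.35 (adjusted p = 0.000681), from 1.48 and 3.42 FPKM to 25.3 and 22.6 FPKM. Mia3, which loads procollagen for export, fell by 0.47 (adjusted p = 0.0277), from 18.5 and 17.4 FPKM to 13.5 and 12.4 FPKM. Of 19 genes for procollagen processing and fibril proteoglycans (14 tested), 8 rose, with a median of 2.07. Among them were Adamts14, a procollagen N-proteinase (0.247 and 0.749 to 8.52 and 10.1 FPKM, rise 4.11), and Bgn, the proteoglycan biglycan (6.01 and 14.4 to 80.6 and 116 FPKM, rise 3.36), with adjusted p = 0.000466 and 0.0028. Of 15 collagen receptors (13 tested), 10 rose, with a median of 1.63, among them Lair1, an inhibitory receptor of leukocytes (0.118 and 0.140 to 2.62 and 2.46 FPKM, rise 3.53), and Cd44 (0.971 and 1.71 to 9.72 and 7.52 FPKM, rise 2.63), with adjusted p = 0.000692 and 0.0019. One of these receptors, Mrc1, is also a macrophage marker. From D3 to D10, 16 of 23, 2 of 14 and 7 of 13 tested genes of the lists fell and 0 rose, beside 18.8% of all genes called lower, so that the processing list stood near the background.

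Markers of the cell types that the muscle can hold moved over the same days. The 8 fibroblast and fibroadipogenic markers summed to 75.1 and 113 FPKM at D0, 139 and 183 at D3 and 261 and 286 at D5, and 2 of 8 were called higher at D3, near the 24.5% of all genes called higher. The 5 macrophage markers summed to 14.1 and 24.7 FPKM at D0, 347 and 336 at D3 and 121 and 147 at D5, with 5 of 5 higher at D3. The 6 tendon markers summed to 16.2 and 51.9 FPKM at D0 and 128 and 223 at D3 (2 of 6 higher), and the 5 smooth muscle and pericyte markers to 101 and 106 FPKM at D0 and 365 and 441 at D3 (3 higher, 1 lower). All these sums were thus higher at D3 than at D0 in both libraries, as the fibrillar sum was, although the share of called markers was near the background for the fibroblast and tendon lists. The 6 endothelial markers summed to 70.0 and 95.5 FPKM at D0, 55.8 and 44.3 at D3 and 71.0 and 106 at D5. At D3, 3 of 6 were lower. Schwann cell markers were at 18.6 and 12.6 FPKM at D0 and 13.6 and 5.63 at D3 (1 of 5 lower). Among all genes, 48.8% were called in either direction and 24.5% higher, so nearly as many were lower as higher. The Schwann cell count was near that background. Of the 5 chondrocyte markers 2 were tested and both were higher at D3, with a sum of 0.473 and 1.16 FPKM at D0 and 6.33 and 13.7 at D3, and keratinocyte markers reached 3.93 FPKM, at D5. At D0 the replicates differed in the same direction for the fibroblast, tendon and endothelial sums as for Col1a1, Col3a1 and Col4a1, with replicate 2 higher. The part of these cells in the collagen results was not tested.

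In C2C12 cells the type VI and fibrillar chains held most of the collagen sum, and the fibrillar share exceeded that of type VI in every DM3 library. On the group means Col6a1 was the most abundant chain in both GM groups and Col3a1 in both DM3 groups. Type VI held 50.4% and 38.5% of the sum in CTRL GM, 24.3% and 26.5% in CTRL DM3, 46.1% and 45.8% in Cas9M3 GM and 25.1% and 26.0% in Cas9M3 DM3. The GM and DM3 libraries of both lines did not overlap in this share. The fibrillar share was 31.7% and 55.4% in CTRL GM, 58.6% and 57.7% in CTRL DM3, 30.0% and 38.7% in Cas9M3 GM and 50.7% and 53.1% in Cas9M3 DM3. The FACIT share was 2.93% and 2.08% in CTRL GM, 7.53% and 5.90% in CTRL DM3, 3.01% and 3.64% in Cas9M3 GM and 8.61% and 7.02% in Cas9M3 DM3, higher in DM3 without overlap. Endothelial markers summed to 0.135 FPKM or less in these cells, with 0 of 6 at 0.5 FPKM or more. The tables were scaled separately, so levels are not compared between cells and muscle.

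**Figure D5:**
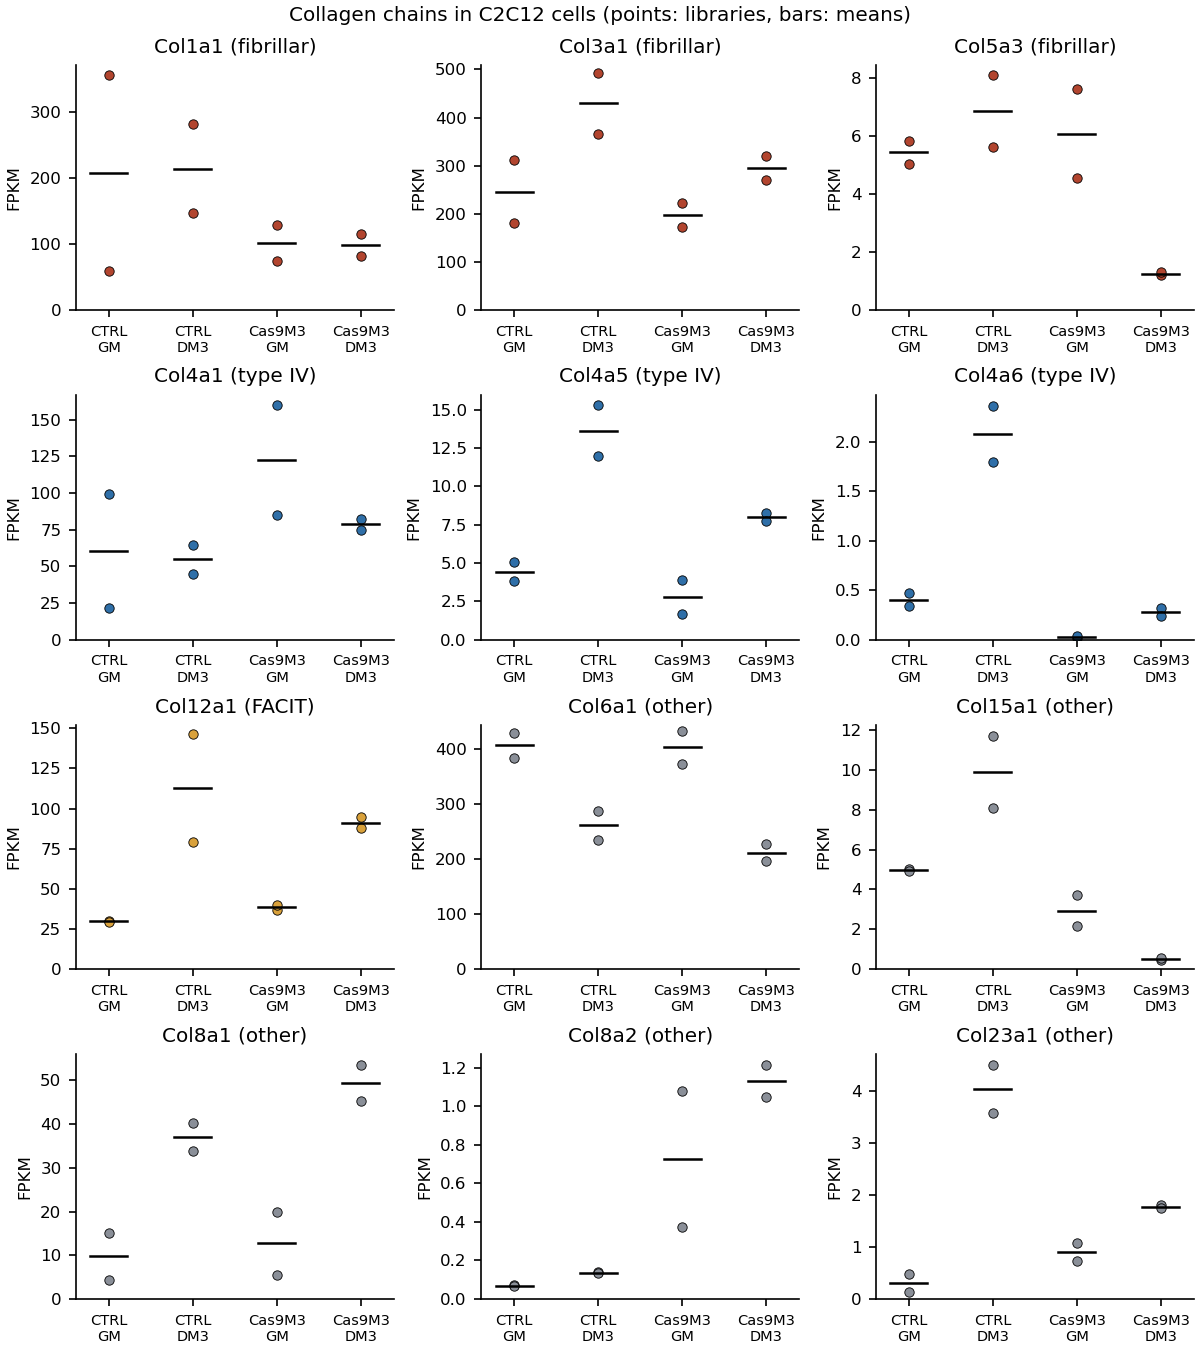
FPKM of named chains in each C2C12 library (points) with the mean of the 2 libraries of a group (bars). Col15a1, Col5a3 and Col4a6 lay lower in Cas9M3 DM3 than in CTRL DM3 without overlap, and Col12a1 lay higher in DM3 than in GM in both lines.

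Between GM and DM3 of the CTRL cells, 1 chain was called, beside 0.767% of 13824 genes called higher and 1.14% in either direction. At an unadjusted p under 0.05 there were 15 chains, beside 2520 genes. Col23a1, a transmembrane collagen, was at 0.488 and 0.126 FPKM in GM and 4.501 and 3.59 FPKM in DM3, a rise of 3.50 (SE 0.48, adjusted p = 0.0394). Col12a1 was at 30.3 and 29.5 FPKM in GM and 146 and 78.9 FPKM in DM3, with a log2 difference of 1.84 (SE 0.29). It missed the threshold (adjusted p = 0.0513) and passed it with the replicate number as a block, when 2 chains were called. Col8a1 differed by 2.17 (adjusted p = 0.213), from 4.34 and 15.2 to 40.3 and 33.9 FPKM, and Col4a6 by 2.11 (adjusted p = 0.0835), from 0.473 and 0.338 to 2.36 and 1.79 FPKM. Neither overlapped between GM and DM3. Without CTRL GM replicate 2, Col23a1 was called alone, without CTRL GM replicate 1 Col12a1, Col23a1, Col24a1 and Col4a6 were called, and without either DM3 library 0 chains and 0% of genes were. The main trimers did not pass. Col1a1 was at 59.6 and 356 FPKM in GM and 281 and 147 in DM3, Col1a2 at 56.9 and 205 in GM and 179 and 135 in DM3, and Col3a1 at 180.0 and 312 in GM and 493 and 366 in DM3. Of these, Col1a1 and Col1a2 overlapped between stages and Col3a1 did not (0.84, adjusted p = 0.271).

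Col5a1 was at 44.3 and 46.4 FPKM in GM and 100.2 and 57.8 in DM3 of CTRL, and Col5a2 at 48.6 and 57.4 in GM and 112 and 86.0 in DM3, with differences of 0.75 (adjusted p = 0.25) and 0.90 (adjusted p = 0.136). The replicates of the type IV trimer chains also lay far apart. Col4a1 was at 99.5 and 21.4 FPKM in GM and 64.9 and 44.8 in DM3, and Col4a2 at 61.5 and 11.5 in GM and 43.4 and 26.4 in DM3. The low GM value of both came from replicate 2, whose scale stands apart, and which also had Pdgfra at 6.76 against 32.9 FPKM. Replicate 2 of Cas9M3 GM was lower than replicate 1 in the same way. There Col4a1 was at 84.8 against 160.0 FPKM, Col4a2 at 52.4 against 109 FPKM and Pdgfra at 6.79 against 27.4 FPKM. The split thus went with the replicate number in both GM groups. The type VI chains were lower in DM3 than in GM without overlap for Col6a1 (385 and 429.6 against 288 and 236 FPKM) and Col6a2 (156 and 176 against 105 and 85.7 FPKM), but not for Col6a3 (91.8 and 76.5 against 94.4 and 45.7 FPKM). None of these passed, with log2 differences of -0.64, -0.80 and -0.35.

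In the Cas9M3 cells 0 chains were called between GM and DM3 by limma, beside 0.0289% of genes. At an unadjusted p under 0.05 there were 12 chains, beside 1748 of 13824 genes. Col15a1 was at 3.71 and 2.17 FPKM in GM and 0.469 and 0.568 in DM3, and Col5a3 at 4.54 and 7.61 in GM and 1.19 and 1.31 in DM3. Both were lower in DM3 without overlap, by log2 differences of -2.25 and -2.15 (adjusted p = 0.0713 each). Col8a1 was at 5.51 and 19.98 FPKM in GM and 53.6 and 45.4 in DM3 (2.22, adjusted p = 0.293), and Col12a1 at 37.1 and 40.0 in GM and 94.7 and 87.8 in DM3 (1.24, adjusted p = 0.154), both higher without overlap, as in CTRL. Col6a1 was at 374 and 433 FPKM in GM and 197 and 227 in DM3, Col6a2 at 146 and 169 in GM and 63.2 and 84.8 in DM3, and Col6a3 at 135 and 127 in GM and 42.8 and 50.9 in DM3. Each type VI chain was thus lower in DM3 in both libraries, with differences of -0.93, -1.10 and -1.49 that did not pass. With CTRL GM replicate 2 left out of the fit, an alternative added after the data were seen, Col15a1 (-2.25), Col5a3 (-2.15) and Col18a1 (-1.06) were called.

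The knockdown comparison sets Cas9M3 cells against CTRL cells at each stage. The loss of Mettl3 RNA and any other difference between the lines cannot be told apart in it. In GM, 0 chains and 0% of genes were called by limma, and 7 chains and 1244 genes had an unadjusted p under 0.05. Col1a1 in Cas9M3 GM was at 74.0 and 128 FPKM, Col3a1 at 173 and 223, Col4a1 at 160.0 and 84.8 and Col4a2 at 109 and 52.4 FPKM, each inside or overlapping the wide range of CTRL GM. Col5a1 was at 71.6 and 88.8 FPKM, above CTRL GM in both libraries, with a difference of 0.81 (adjusted p = 0.514). Col4a6 was at 0.0159 and 0.0410 FPKM against 0.473 and 0.338, with a difference of -1.97 (adjusted p = 0.315).

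At DM3, 3 chains were lower in Cas9M3 than in CTRL, beside 0.687% of genes called lower and 1.98% in either direction, and each was a DEG (0.398% of genes were DEGs and lower). Col15a1 (chr4:47208161-47313167, + strand), which anchors the basement membrane of muscle to its surroundings, was at 11.7 and 8.06 FPKM in CTRL and 0.469 and 0.568 in Cas9M3, lower by 3.99 (SE 0.32, adjusted p = 0.0187) on the log2 scale. Col5a3 (chr9:20770050-20815067, - strand) was at 8.08 and 5.63 FPKM in CTRL and 1.19 and 1.31 in Cas9M3, a log2 change of -2.34 (SE 0.31, adjusted p = 0.0279). Col4a6 (chrX:141165403-141474076, - strand) was at 2.36 and 1.79 FPKM in CTRL and 0.324 and 0.239 in Cas9M3, a log2 change of -2.51 (SE 0.42, adjusted p = 0.0449). Col4a6 reached 0.5 FPKM only in CTRL DM3, so it entered the test through the group where it was high. For all 3 the groups did not overlap, and each belongs to another structural type. The same 3 chains were called with the replicate block and with quantile normalization, where Col15a1 was at -4.17. Col4a6 was not called with a pseudocount of 0.01, without the filter or with a filter at 1 FPKM. With only the groups compared in the fit, 11 chains were called, 6 higher and 5 lower. The share of all genes called in that fit is not set beside this count, so it is not a result about the chains. Without any 1 of the 4 libraries compared, 0 chains and 0% of genes were called, with Col15a1 at -4.26 to -3.73, and Col4a6 fell under the filter without either CTRL library. In all, 7 chains and 2429 of 13824 genes had an unadjusted p under 0.05. The groups also differed in muscle markers, with 2 of 6 tested called lower in Cas9M3 and Acta1 at 10.3 and 7.89 FPKM against 414 and 362. The sum of fibroblast markers was at 1035 and 1186 against 261 and 324 FPKM, mostly from list genes other than Pdgfra, Dcn and Lum. Of these named genes, Pdgfra and Dcn were higher in Cas9M3, and Lum was lower, at 1.33 and 0.806 against 2.15 and 2.60 FPKM. The sum is therefore not a shift of every marker. The part of these marker differences in the collagen results was not tested.

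The other chains at DM3 did not pass. Col1a1 was at 81.6 and 115 FPKM in Cas9M3 against 281 and 147 in CTRL, Col1a2 at 113 and 148 against 179 and 135, and Col3a1 at 270.3 and 319 against 493 and 366. Col1a1 and Col3a1 were lower without overlap (-1.07, adjusted p = 0.612, and -0.53, adjusted p = 0.53), and Col1a2 overlapped. Col5a1 was at 60.8 and 68.1 FPKM, Col5a2 at 81.4 and 88.0, Col4a1 at 74.9 and 82.4, Col4a2 at 40.6 and 45.8 and Col12a1 at 94.7 and 87.8 FPKM, with log2 differences of -0.24, -0.22, 0.54, 0.35 and -0.24. In the other direction, Col8a2 was at 1.05 and 1.21 FPKM against 0.138 and 0.134 (2.38, adjusted p = 0.088) and Col11a1 at 1.36 and 1.35 against 0.215 and 0.113 (2.49, adjusted p = 0.0972), higher without overlap. Col11a1 reached 0.5 FPKM only in Cas9M3 DM3 and Col8a2 only in Cas9M3 libraries, so both entered the test through the line where they were high. The genes of the 3 collagen lists gave 0 calls in each of the cell comparisons.

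Within the head-to-head pair on chromosome X, Col4a6 was called at DM3 and neither chain was called in GM. Col4a5 was at 3.80 and 5.04 FPKM in CTRL GM, 15.3 and 11.98 in CTRL DM3, 1.65 and 3.88 in Cas9M3 GM and 8.27 and 7.74 in Cas9M3 DM3, a difference of -0.75 (adjusted p = 0.42) at DM3. Col4a5/Col4a6, a ratio chosen after values were seen, was 8.02 and 14.9 in CTRL GM, 6.49 and 6.68 in CTRL DM3, 104 and 94.7 in Cas9M3 GM and 25.5 and 32.4 in Cas9M3 DM3, with no overlap between the lines. The ratio in Cas9M3 GM rests on 4 and 6 implied reads of Col4a6. The pair on chromosome 8 kept its ratio, with Col4a1/Col4a2 at 1.47 to 1.86 over the 8 libraries, as did Col6a1/Col6a2 at 2.44 to 3.12. Col8a1/Col8a2 was 62.0 and 219 in CTRL GM, 292 and 254 in CTRL DM3, 14.7 and 18.5 in Cas9M3 GM and 51.2 and 37.4 in Cas9M3 DM3, lower in Cas9M3 at both stages. Col5a1/Col5a2 was 1.71 and 1.61 in Cas9M3 GM and 0.672 to 0.912 in the other 6 libraries. These ratios are given as descriptions.

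The 17 chains that were not tested in the cells were at or below 0.326 FPKM, which corresponds to at most 40 reads in a library, and Col4a3, Col9a1 and Col13a1 were listed at 0 in all 8. Col13a1 and Col26a1, called in muscle, were among these untested chains. The 13 untested chains of muscle were at or below 0.580 FPKM, or 55 reads, so that the cartilage chains Col2a1, Col9a1, Col9a2 and Col9a3, the hypertrophic cartilage chain Col10a1, the hemidesmosomal chain Col17a1 and the glomerular chains Col4a3 and Col4a4 were near the limit of these libraries on every day.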

How the data were processed

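RNA-seq of 10 TA muscle libraries (5 days, 2 each) and 8 C2C12 libraries (4 groups, 2 each) was analysed; 8 further samples of the series were not analysed here. The deposited values are FPKM: per the methods, the authors used HISAT2 for alignment (GRCm38 in the submitters' notes), featureCounts for counting and DESeq2 for scaling to FPKM. The 2 tables were scaled separately and are compared only within themselves. Samples were grouped by condition and replicate number in their labels.

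Genes that reached 0.5 FPKM in 2 or more libraries (16753 in muscle, 13824 in cells) were fitted as log2(FPKM + 0.1) with limma 3.58.1 in R 4.3.3 (all groups of a table in 1 fit, eBayes with trend, Benjamini-Hochberg adjustment). A DEG passed both thresholds of the methods, 0.05 for the adjusted p and 2 for the log2 change. Type sums, shares and ratios were computed from FPKM with pandas 2.3.3 (Python 3.11.15) and carry no test. Depth was implied from low values, of which 96.7% to 98.8% were whole multiples, to within 0.02, of the value of 1 read. It bounds precision (1 read on 1 kb was 0.0494 to 0.0817 FPKM in muscle and 0.0315 to 0.104 FPKM in cells) and covers counting error only. Deviations of same-numbered cell libraries correlated at 0.278 to 0.680 in all 6 pairs of groups, so the replicate number carried a shared difference there. The main fit did not model it. Fits with the replicate number as a block are given as alternatives.

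Values are given for the chains of the main trimers and for each chain that was a DEG in any comparison or called in a knockdown comparison, and for list genes with the 2 largest rises or falls. Chain types, lists and tests were chosen with earlier results of these data known. Simulated data with 200 genes changed by 3 on the log2 scale gave 152 of 200 for D3 against D0 over 16753 genes (6 unchanged genes called) and 144 of 200 for CTRL DM3 against GM over 13824 genes (3 called). Pseudocounts, filters, quantile normalization, the samples fitted, the replicate block, a term for Xist RNA and leaving out each library were tried.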

Additional observations from a re-analysis of the deposited data

Results flagged for a closer look

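Col15a1 and Col5a1 were picked from the tested chains by a rule on these same values. They went in opposite directions between GM and DM3 in the CTRL and Cas9M3 cells, with no overlap between the stages in either line. The share of all genes that met this rule was not counted, so the pick is a description only. The unadjusted p-values below come from the values that picked the chains. Col15a1 was higher in DM3 than in GM in both CTRL libraries (11.7 and 8.06 against 5.01 and 4.91 FPKM) and lower in both Cas9M3 libraries (0.469 and 0.568 against 3.71 and 2.17 FPKM). The difference between the stages in the contrast of Cas9M3 with CTRL, tested in the same limma fit, was -3.21 on the log2 scale (SE 0.45, unadjusted p = 0.000309, adjusted p = 0.266). Col5a1 was higher in DM3 in CTRL (100.2 and 57.8 against 44.3 and 46.4 FPKM) and lower in Cas9M3 (60.8 and 68.1 against 71.6 and 88.8 FPKM), and the difference was -1.06 (SE 0.41, unadjusted p = 0.0389, adjusted p = 0.542). Neither passed the adjustment over all genes, for which 0 of 13824 genes were called in this comparison (0 chains called, 4 chains and 1198 genes at an unadjusted p under 0.05).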

How the results depend on the processing

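Counts of called chains at D3 against D0 stayed at 18 to 22 with other pseudocounts, filters, quantile normalization, the replicate block and only the groups compared, and fell to 13 with a term for Xist RNA. In the muscle table same-numbered libraries shared only a number (correlations of deviations -0.0187 to 0.211), and the block gave 22, 24, 21, 3 and 15 calls for D3 against D0, D5 against D0, D3 against D1, D5 against D3 and D10 against D3. The term for Xist RNA gave 0 for D5 against D0, 2 for D3 against D1, 0 for D5 against D3 and 1 for D10 against D3. It was set by the D3 libraries alone, since only they differed in Xist RNA within a day. For comparisons with D3 it thus comes to the same as leaving out a D3 library and is not a separate check. For D5 against D0 it cannot separate Xist RNA from the day. Without the filter on low values there were 10, 0 and 3 calls for D5 against D0, D5 against D3 and D10 against D3. For D5 against D3, a pseudocount of 0.01 gave 0, quantile normalization 2 and only the groups compared 5. In the cells, CTRL DM3 against GM gave 3 with a pseudocount of 1, 0 with 0.01, 0 without the filter, 0 with only the groups compared, 2 with the replicate block and 4 with the block and quantile normalization. The last alternative, chosen after seeing the data, gave 2 for Cas9M3 DM3 against GM, and leaving CTRL GM replicate 2 out of the fit, also added then, gave 3. Cas9M3 against CTRL at DM3 gave 11 with only the groups compared. The block changed no other count of calls by over 1.5 times in the cells. Most of these counts stand without the share of all genes called under the same setting, which can move as well. They therefore describe the settings and are not results about the chains. The cause of these changes was not tested.

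Leaving out each of the libraries compared in turn gave 0 to 2 calls for D1 against D0, 8 to 19 for D3 against D0, 0 to 17 for D5 against D0, 0 to 0 for D10 against D0, 2 to 20 for D3 against D1, 0 to 0 for D5 against D3, 1 to 10 for D10 against D3, 0 to 4 for CTRL DM3 against GM, and 0 to 0 for the other cell comparisons. The group left with 1 library was assumed to vary like the others. These counts, too, stand here without the share of all genes called. The log2 difference at D3 against D0 changed sign for Col15a1 (-0.37 to 0.97), Col4a1 (-0.62 to 0.76) and Col4a2 (-0.67 to 0.44), and Col4a2 was at 0.22 with quantile normalization. With Col15a1 and Col18a1 counted as basement membrane chains, the mean share of that type was 35.1% at D0, 7.59% at D3, 25.1% at D10 and 7.21% in CTRL DM3. Of 657 alternative values of 55 changes of named chains, those from other settings kept direction and side of the threshold in 384 cases, passed out of it in 38, into it in 22 and changed sign in 1. With a library left out these were 137, 69, 3 and 3. Depth limits the untested chains, which rest on at most 55 reads a library.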
